A study of Homo sapiens with 18 samples.

Results

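The genes described here encode the aminoacyl-tRNA synthetases, the enzymes that join each amino acid to its tRNA. The rule takes genes by name and function and uses no measured value. It holds 37 of the 17017 genes in the deposited table, namely 19 cytosolic enzymes, 16 mitochondrial enzymes and the scaffold proteins AIMP1 and AIMP2. All 37 were found in the table under their current symbols. Compartments were taken from the symbols: those ending in 2 are mitochondrial, and those ending in 1, with FARSA and FARSB, are cytosolic. GARS1 and KARS1 are known to supply both compartments and were counted as cytosolic.

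The cells were MDA-MB-231, an established human line of triple-negative breast carcinoma. All cells had been transduced with lentivirus and kept in 1 µg/ml puromycin for 96 h. The control, SC, is read here as the scramble hairpin, and SH2 and SH3 as the hairpins against the mRNA of fibrillarin (FBL), the enzyme that places 2'-O-methyl groups on ribosomal RNA. The study's text calls its hairpins KD1 and KD2 and the labels do not tie these names to SH2 and SH3. Cells were treated with 100 µg/ml cycloheximide for 5 min before lysis. Cytoplasmic input RNA (IN) and ribosome-protected footprints (RPF) were each sequenced in 3 replicates of SC, SH2 and SH3, which makes 18 libraries. The labels do not say that replicates were separate transductions, so the p-values measure only the spread between these samples.

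A synthetase activates its amino acid with ATP and transfers it to the matching tRNA, and the elongation factor eEF1A carries the charged tRNA to the ribosome. In the cytosol, several of the enzymes sit together in the multisynthetase complex, held by the scaffolds AIMP1, AIMP2 and EEF1E1. Mitochondria use a second set of enzymes, encoded in the nucleus, for their own tRNAs. When charging falls short, uncharged tRNA activates the kinase GCN2 (EIF2AK4), and the transcription factor ATF4 is then made and switches on amino acid genes, many cytosolic synthetases among them. ATF4 and its partners bind an element called CARE.

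The promoter sequences of these genes are shown first because CARE is the best known element that cytosolic synthetase genes share. Promoters came from RefSeq (GRCh38.p14), from 250 bases before to 50 bases after each start site. Of the 37 genes, 32 matched, with 44 promoters. LARS1, VARS1, YARS1, AARS2 and VARS2 had no entry. The letters searched for CARE were TGATGNAA on both strands, and they occur in 3.62% of 35116 human promoters of the same length. They occur in 7 of 16 matched cytosolic genes, in 1 of 14 matched mitochondrial genes (YARS2) and in 0 of the 2 scaffold genes. A gene was counted if any of its promoters matched. Its chance of a match thus grows with its number of promoters, and counts of genes and shares of promoters differ in unit. The stricter form TGATGCAA, a subset of the first, is in 0.866% of all promoters. It is in 6 of the 16 cytosolic genes and in 0 of the 14 mitochondrial genes. The 7 cytosolic matches are given on the strand of the gene, with the motif in capitals, and 6 of them read as its reverse complement.
TARS1, chr5:33440956-33440985, + strand: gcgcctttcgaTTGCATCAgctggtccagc
GARS1, chr7:30594834-30594863, + strand: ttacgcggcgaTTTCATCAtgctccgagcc
IARS1, chr9:92293692-92293721, - strand: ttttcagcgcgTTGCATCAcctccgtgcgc
CARS1, chr11:3057407-3057436, - strand: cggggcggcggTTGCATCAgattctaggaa
MARS1, chr12:57488053-57488082, + strand: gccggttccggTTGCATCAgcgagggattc
AARS1, chr16:70289675-70289704, - strand: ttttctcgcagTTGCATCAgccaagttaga
NARS1, chr18:57621804-57621833, - strand: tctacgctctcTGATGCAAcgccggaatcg

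A second element is shown for WARS1, the tryptophanyl enzyme, a well known target of interferon. The core of the interferon-stimulated response element, GAAA, any 2 bases and GAAA again, was searched on both strands and occurs in 3.57% of all promoters. Among the matched genes it was found for WARS1 and for EARS2. The WARS1 match lies 55 to 46 bases before the start site and is printed with the element in capitals.
WARS1, chr14:100375383-100375412, - strand: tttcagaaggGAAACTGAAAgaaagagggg

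HARS1 and HARS2, the cytosolic and mitochondrial histidyl enzymes, are shown because they are transcribed away from each other from 1 short stretch of chromosome 5. Their start sites, at 140691370 and 140691455, have 84 bases between them, and 59.5% of these bases are G or C. The stretch is printed on the strand of HARS2, and no letters are capitalized.
HARS1 to HARS2, chr5:140691371-140691454, + strand: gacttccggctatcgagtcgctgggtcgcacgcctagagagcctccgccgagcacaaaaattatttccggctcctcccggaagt
A match of letters is a description of the window and not evidence that a factor binds there.

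In the series as a whole, the mean FBL RNA level was 388 CPM (counts scaled to a library of 1e+06) in SC, and with SH2 and SH3 it fell to 5.67 and 3.49, with no overlap between hairpin and SC libraries. IN libraries held 23469830 to 27629488 counts and RPF libraries 1662705 to 6098648. The 37 genes took 0.552% to 0.719% of IN counts and 0.706% to 0.865% of RPF counts. Of the markers of such a line, VIM and CD44 were high, ESR1 and PGR had at most 2 counts in any library, and CDH1 at most 11, while ERBB2 (95.3 ± 8.54 CPM, SD, n = 3 SC IN libraries) and EPCAM (5.66 ± 0.67 CPM) were present. The scaling uses the effective library size within each library kind. No gene lengths were used, so a CPM is compared between groups for 1 gene and never between genes. In these bulk libraries, fewer cells and less RNA per cell cannot be told apart.

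Behind each value, cytosolic members had 1524 (FARSB) to 19211 (IARS1) IN counts in a library and 234 (FARSB) to 4562 (TARS1) RPF counts. Mitochondrial members other than VARS2 had 121 to 6314 IN counts and 8 to 631 RPF counts, so their footprint changes are less precise. VARS2 had 43 to 99 IN counts and 0 to 3 RPF counts, and it alone did not pass the filter on low footprint counts. The RNA tests therefore cover all 37 genes and the footprint tests 36. A gene is said to be called, and to have risen or fallen, where its adjusted p was under 0.05 in edgeR's quasi-likelihood test, adjusted by the Benjamini-Hochberg method over all genes tested. SH2 and SH3 share their 3 control libraries, and their values are therefore set side by side without a measure of agreement.

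Synthetase RNAs changed in both directions, and at no higher rate than other genes. With SH2, 19 of the 37 RNAs were called, 12 higher and 7 lower, against 61.4% of all genes tested. With SH3, 19 were called, 16 higher and 3 lower, against 53% of all genes. The median log2 change of the members was 0.06 with SH2 and 0.20 with SH3, beside 0.01 and 0.03 over all genes tested. Of the 37, 9 RNAs rose with both hairpins (19.6% of all genes did): AARS1, FARSA, HARS1, WARS1, AARS2, PARS2, TARS2, AIMP1 and AIMP2. A further 3 fell with both (18.2% of all genes): YARS1, CARS2 and WARS2. EPRS1 fell with SH2 and rose with SH3 (1.92% of all genes were called in opposite directions). Calls with SH2 alone were made for 6 (21.6% of all genes) and with SH3 alone for 6 (13.2%), and 12 RNAs were called with neither hairpin (25.4% of all genes): CARS1, GARS1, KARS1, QARS1, RARS1, TARS1, VARS1, EARS2, FARS2, NARS2, RARS2 and SARS2.

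Footprints, which count ribosome-protected reads summed over all mRNA copies of a gene, were called less often than RNA in members and in all genes alike. With SH2, 13 of 36 members were called, 4 higher and 9 lower, against 44.2% of all genes tested. That lean depended on single libraries: without SC replicate 2 the counts were 9 higher and 8 lower, and without SC replicate 3 they were 2 and 7. With SH3, 10 were called, 7 higher and 3 lower, against 35.9%. The median log2 change in footprints was 0.03 with SH2 and 0.10 with SH3, beside 0.00 and -0.01 over all genes. QARS1, WARS1 and TARS2 rose with both hairpins (10.8% of all genes), and YARS1 and CARS2 fell with both (12% of all genes). With SH2, 7 genes were called in the same direction in RNA and footprints, which is 36.8% of the RNA calls and 53.8% of the footprint calls. With SH3 this count was 8, which is 42.1% of the RNA calls and 80% of the footprint calls. No member was called in opposite directions in the RNA and the footprints of 1 comparison. The same counts were not made over all genes, so they cannot be read as particular to the members.

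**Figure D1:**
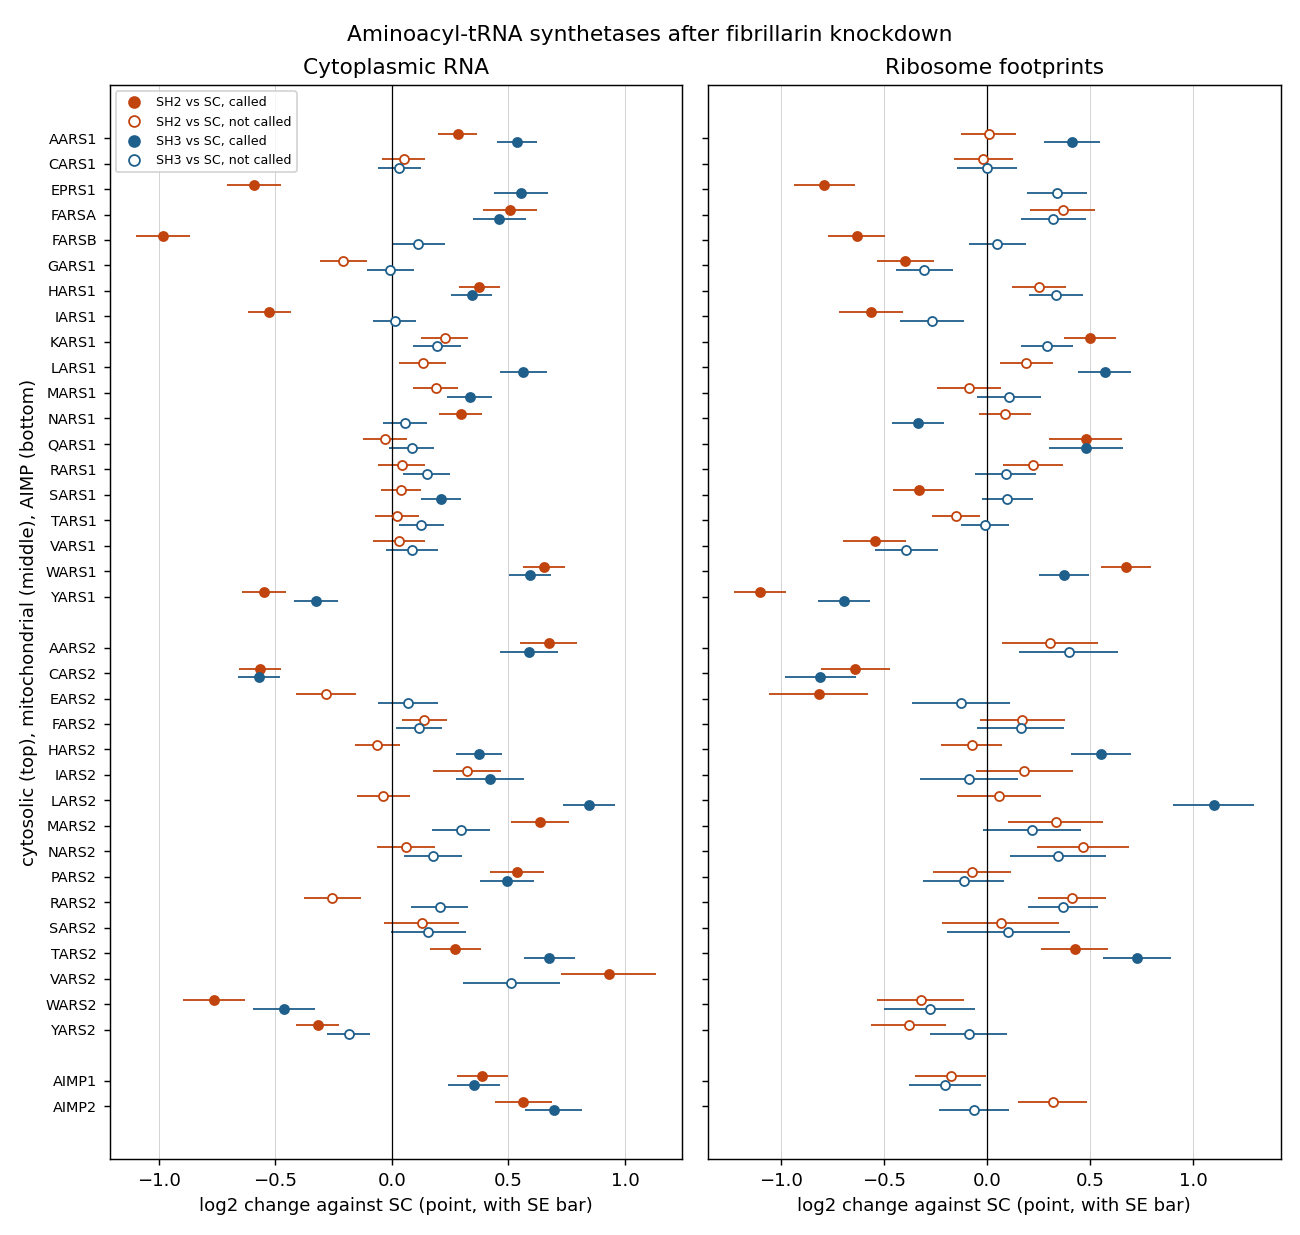
Log2 change against SC for every member in cytoplasmic RNA (left) and ribosome footprints (right), with SE bars, for SH2 (red) and SH3 (blue), from 3 libraries a group. Filled points were called at an adjusted p under 0.05. FARSB and EPRS1 lie left of 0 with SH2 in both panels, while YARS1 lies left of 0 with both hairpins.

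Among the enzymes of the multisynthetase complex, EPRS1, which joins the glutamyl and the prolyl enzyme in 1 protein, was the member with the largest difference between the hairpins. Its RNA was 243, 236 and 217 CPM in the SC libraries, 159, 177 and 126 in SH2, and 364, 329 and 330 in SH3. SH2 libraries were all below SC and SH3 libraries all above, with no overlap. The log2 change was -0.59 with SH2 (SE 0.12, adjusted p = 0.00054, edgeR) and 0.56 with SH3 (SE 0.12, adjusted p = 0.00114, edgeR). EPRS1 footprints were 366, 416 and 424 CPM in SC, 234, 274 and 188 in SH2, and 551, 513 and 463 in SH3. Here too the 3 groups did not overlap. Footprints fell with SH2 by 0.79 on the log2 scale (SE 0.15, adjusted p = 0.000495, edgeR). The SH3 footprint value, 0.34 (SE 0.15, adjusted p = 0.079, edgeR), missed the threshold.

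IARS1 and LARS1, which charge isoleucine and leucine tRNAs, were each called with 1 hairpin. IARS1 RNA was 765, 683 and 739 CPM in SC, 483, 551 and 484 in SH2, and 712, 757 and 736 in SH3. The SH2 libraries lay below all others, and SC and SH3 overlapped. RNA fell with SH2 by 0.53 on the log2 scale (SE 0.09, adjusted p = 0.000208, edgeR) and its footprints fell by 0.56 (SE 0.15, adjusted p = 0.00752, edgeR). LARS1 RNA was 254, 261 and 267 CPM in SC, 265, 327 and 264 in SH2, and 365, 413 and 378 in SH3. SH3 libraries were above all others, and SC and SH2 overlapped. LARS1 rose with SH3 by a log2 change of 0.56 in RNA (SE 0.10, adjusted p = 0.000391, edgeR) and 0.57 in footprints (SE 0.13, adjusted p = 0.0028, edgeR).

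The other enzymes of the complex changed less in RNA. MARS1, the methionyl enzyme, rose in RNA with SH3 (log2 0.33, adjusted p = 0.00917, edgeR), a call lost without SC replicate 3 or SH3 replicate 2 (adjusted p up to 0.0656 over the alternatives). KARS1, the lysyl enzyme, was not called in RNA, but its footprints rose with SH2 from 200, 187 and 206 CPM in SC to 296, 262 and 280 (log2 0.50, SE 0.12, adjusted p = 0.0042, edgeR), with no overlap. RARS1, the arginyl enzyme, was called in neither measure. QARS1, the glutaminyl enzyme, had RNA values within 0.09 of SC on the log2 scale with both hairpins, and its footprints were called higher with both. Its footprints were 224, 375 and 279 CPM in SC, 350, 498 and 372 in SH2, and 385, 437 and 399 in SH3. The high SC library, replicate 2, overlapped SH2 and lay below all SH3 libraries. The log2 changes of QARS1 footprints were 0.48 (SE 0.18, adjusted p = 0.039, edgeR) and 0.48 (SE 0.18, adjusted p = 0.0463, edgeR). With SH2 the QARS1 call was lost without SC replicate 1 or 3 or SH2 replicate 2 (adjusted p up to 0.201 over the alternatives). With SH3 it was lost without SC replicate 1 or 3 or without any 1 SH3 replicate (adjusted p up to 0.141).

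The scaffolds AIMP1 and AIMP2 rose in RNA with both hairpins and were not called in footprints. AIMP2 RNA was 86.0, 64.7 and 65.7 CPM in SC, 109, 103 and 107 in SH2, and 106, 133 and 111 in SH3, with all hairpin libraries above all SC libraries. Its log2 changes were 0.56 (SE 0.12, adjusted p = 0.00113, edgeR) and 0.69 (SE 0.12, adjusted p = 0.000312, edgeR). AIMP1 RNA was 59.3, 55.6 and 52.0 CPM in SC, 73.5, 77.3 and 67.6 in SH2, and 62.3, 81.7 and 69.0 in SH3. It rose by log2 0.39 with SH2 (adjusted p = 0.00732, edgeR) and 0.35 with SH3 (adjusted p = 0.0152, edgeR), and the SH3 call was lost without SC replicate 3 or SH3 replicate 2 (adjusted p up to 0.135). Footprint values overlapped between SC and both hairpins for both scaffolds. For AIMP1 the log2 changes in footprints were -0.18 and -0.21 (edgeR adjusted p = 0.424 and 0.381), and for AIMP2 they were 0.32 and -0.06 (edgeR adjusted p = 0.134 and 0.801). The third scaffold, EEF1E1, is not among the 37 genes. Its RNA fell with SH2 by 0.89 on the log2 scale (SE 0.17, adjusted p = 0.000346, edgeR) and was -0.22 with SH3 (SE 0.16, adjusted p = 0.274, edgeR).

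Among the cytosolic enzymes outside the complex, WARS1 rose and YARS1 fell with both hairpins. WARS1 RNA was 121, 128 and 119 CPM in SC, 182, 212 and 185 in SH2, and 193, 185 and 178 in SH3. Every hairpin library lay above every SC library. The log2 change was 0.65 (SE 0.09, adjusted p = 2.98e-05, edgeR) with SH2 and 0.59 (SE 0.09, adjusted p = 0.000105, edgeR) with SH3. WARS1 footprints were 206, 216 and 203 CPM in SC, 321, 351 and 326 in SH2, and 285, 265 and 262 in SH3, again with no overlap of hairpins with SC. They rose by log2 0.67 with SH2 (SE 0.12, adjusted p = 0.000343, edgeR) and 0.37 with SH3 (SE 0.12, adjusted p = 0.0236, edgeR). The SH3 footprint call was lost without SC replicate 3 or SH3 replicate 1 or 2 (adjusted p up to 0.0698).

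YARS1, the tyrosyl enzyme, had the largest footprint change against SC among the cytosolic enzymes. Its RNA was 305, 267 and 313 CPM in SC, 202, 190 and 213 in SH2, and 232, 225 and 250 in SH3, with every hairpin library below every SC library. RNA fell by 0.55 on the log2 scale with SH2 (SE 0.09, adjusted p = 0.000183, edgeR) and by 0.33 with SH3 (SE 0.09, adjusted p = 0.00965, edgeR). The SH3 RNA call was lost without SC replicate 3 (adjusted p up to 0.0516). YARS1 footprints were 336, 388 and 415 CPM in SC, 173, 179 and 178 in SH2, and 234, 225 and 244 in SH3. The 3 groups did not overlap, with SH2 lowest. Footprints fell by 1.10 on the log2 scale with SH2 (SE 0.13, adjusted p = 7.67e-06, edgeR) and by 0.70 with SH3 (SE 0.13, adjusted p = 0.000581, edgeR). The log2 ratio of WARS1 to YARS1 footprints was -0.86 ± 0.16 in SC, 0.91 ± 0.05 in SH2 and 0.21 ± 0.09 in SH3 (n = 3 each, SD). Since the genes were picked for moving apart, this ratio is a description.

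FARSA and FARSB encode the alpha and beta subunits of the phenylalanyl enzyme, which is built from both, and their RNAs moved apart with SH2. FARSA RNA was 349, 277 and 322 CPM in SC, 438, 430 and 479 in SH2, and 381, 497 and 428 in SH3. All hairpin libraries were above all SC libraries. FARSA RNA rose by log2 0.51 (SE 0.11, adjusted p = 0.00164, edgeR) and 0.46 (SE 0.11, adjusted p = 0.00391, edgeR). FARSB RNA was 137, 130 and 134 CPM in SC, 59.8, 82.1 and 61.1 in SH2, and 135, 151 and 148 in SH3. SH2 libraries were well below the rest, and SC and SH3 overlapped. FARSB RNA fell with SH2 by 0.98 on the log2 scale (SE 0.12, adjusted p = 7.48e-06, edgeR), the largest fall in RNA among the 37 genes, and was 0.11 with SH3 (SE 0.12, adjusted p = 0.427, edgeR).

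The subunit footprints followed a like pattern. FARSB footprints were 140, 148 and 122 CPM in SC, 96.3, 80.9 and 87.7 in SH2, and 137, 157 and 130 in SH3. They fell with SH2 by 0.63 on the log2 scale (SE 0.14, adjusted p = 0.00174, edgeR), while FARSA footprints were not called (log2 0.37 and 0.32, edgeR adjusted p = 0.068 and 0.121). With the replicate number as a block, the FARSA footprint value with SH2 was 0.38 (adjusted p = 0.0179, edgeR). As a description of the pair, the log2 ratio of FARSA to FARSB RNA was 1.23 ± 0.13 in SC, 2.74 ± 0.31 in SH2 and 1.58 ± 0.12 in SH3 (n = 3 each, SD). The same ratio in footprints was 1.46 ± 0.29, 2.47 ± 0.15 and 1.73 ± 0.26. Per-gene ratios are not scaled by length, so only their change between groups can be read.

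**Figure D2:**
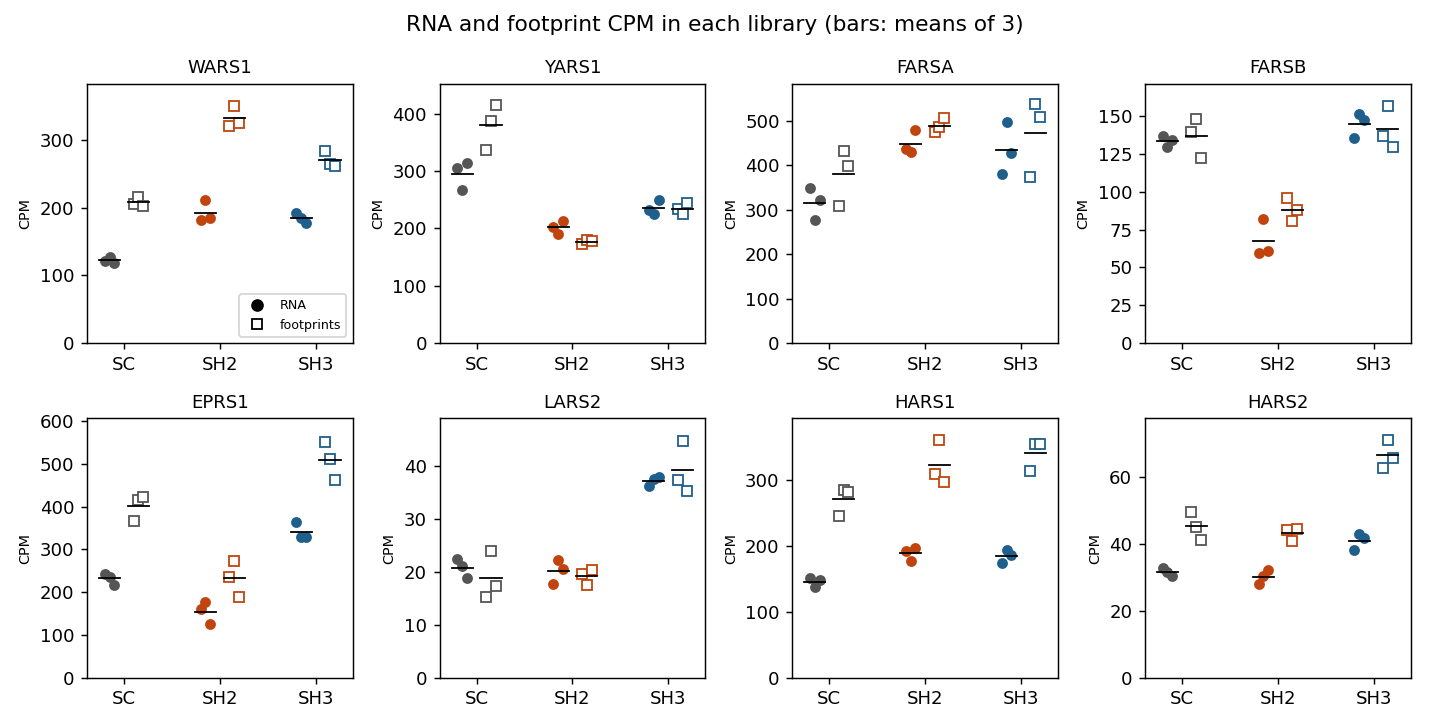
CPM of 8 synthetase genes in each library, in RNA (filled circles) and footprints (open squares) of SC (grey), SH2 (red) and SH3 (blue). Bars are means of 3 libraries and axes start at 0. YARS1 footprints fall from 336 to 415 CPM in SC to 173 to 179 in SH2, and LARS2 is high in SH3 alone.

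AARS1, the alanyl enzyme, rose in RNA with both hairpins. It was 152, 160 and 164 CPM in SC, 181, 195 and 203 in SH2, and 224, 231 and 236 in SH3, and the 3 groups did not overlap. The log2 changes were 0.28 (SE 0.09, adjusted p = 0.0105, edgeR) and 0.54 (SE 0.09, adjusted p = 0.000144, edgeR). AARS1 footprints were called with SH3 alone (log2 0.41, adjusted p = 0.0254, edgeR), and that call was lost without SC replicate 1 or SH3 replicate 2 or 3 (adjusted p up to 0.0932). HARS1 RNA rose by log2 0.37 and 0.34 (edgeR adjusted p = 0.00214 and 0.00489), with no overlap with SC. Its footprints, at 0.25 and 0.34, were not called (edgeR adjusted p = 0.126 and 0.0558).

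NARS1 and SARS1, the asparaginyl and seryl enzymes, had calls near the threshold. NARS1 RNA rose with SH2 (log2 0.29, adjusted p = 0.0133, edgeR), a call lost without SC replicate 2 (adjusted p up to 0.0596). NARS1 footprints were called lower with SH3 (log2 -0.34, adjusted p = 0.0496, edgeR), and leaving out any 1 of the 6 libraries ended that call (adjusted p up to 0.201). SARS1 RNA was called higher with SH3 (log2 0.21, adjusted p = 0.0498, edgeR) and its footprints lower with SH2 (log2 -0.33, adjusted p = 0.0412, edgeR). Any 1 library left out ended the SARS1 RNA call (adjusted p up to 0.195), and leaving out SC replicate 1 or 3 or any SH2 replicate ended the footprint call (adjusted p up to 0.198).

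GARS1 and VARS1, which charge glycine and valine tRNAs, fell in footprints with SH2 and were not called in RNA. VARS1 footprints were 242, 349 and 296 CPM in SC and 172, 214 and 219 in SH2 (log2 -0.55, SE 0.15, adjusted p = 0.00852, edgeR), a call lost without SH2 replicate 1 (adjusted p up to 0.052). With SH3 the VARS1 value was -0.39 (adjusted p = 0.0555, edgeR). GARS1 footprints were 613, 757 and 692 CPM in SC and 465, 597 and 502 in SH2 (log2 -0.40, SE 0.14, adjusted p = 0.0293, edgeR). The GARS1 call was lost without SC replicate 2 or 3 or SH2 replicate 1 or 3 (adjusted p up to 0.131). CARS1 and TARS1, the cysteinyl and threonyl enzymes, were not called in RNA or footprints against SC, and their log2 changes in these measures ran from -0.15 (TARS1 footprints with SH2) to 0.13 (TARS1 RNA with SH3).

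Cytosolic genes with the CARE letters shown above were called in both directions in RNA with SH2 and only higher with SH3. Of the 7 cytosolic genes with a match, 2 rose (AARS1 and NARS1) and 1 fell (IARS1) in RNA with SH2, and 2 rose (AARS1 and MARS1) with SH3. Of the 9 matched cytosolic genes without it, 3 rose and 2 fell with SH2, and 5 rose with SH3. The median log2 changes of RNA were 0.05 and 0.06 for the 7 genes and 0.04 and 0.21 for the 9. Of all RNAs tested, 31.1% rose and 30.4% fell with SH2, and 27.8% rose and 25.2% fell with SH3. No test was run on these small groups, so the counts are a description.

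Among the mitochondrial enzymes, the RNAs of AARS2, PARS2 and TARS2, for alanine, proline and threonine, rose with both hairpins. AARS2 RNA was 19.6, 15.8 and 15.0 CPM in SC, 27.9, 24.4 and 28.0 in SH2, and 26.9, 25.4 and 23.6 in SH3, with no overlap between SC and the hairpins. Its log2 changes were 0.67 (SE 0.12, adjusted p = 0.00033, edgeR) and 0.59 (SE 0.12, adjusted p = 0.00125, edgeR). PARS2 RNA rose by log2 0.54 and 0.49 (edgeR adjusted p = 0.00114 and 0.00273), also without overlap. The footprints of both overlapped between all groups and were not called.

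TARS2 rose in RNA and in footprints. Its RNA was 35.5, 32.8 and 29.5 CPM in SC, 35.3, 39.1 and 43.6 in SH2, and 49.1, 55.7 and 51.2 in SH3. SH3 was above all other libraries, and SH2 overlapped SC. The log2 change was 0.27 with SH2 (SE 0.11, adjusted p = 0.0446, edgeR) and 0.68 with SH3 (SE 0.11, adjusted p = 0.00018, edgeR). TARS2 footprints were 35.7, 44.7 and 36.2 CPM in SC, 47.0, 50.8 and 57.0 in SH2, and 52.7, 69.2 and 68.0 in SH3. Neither hairpin overlapped SC, with log2 changes of 0.43 (SE 0.16, adjusted p = 0.0445, edgeR) and 0.73 (SE 0.16, adjusted p = 0.00282, edgeR). Both SH2 calls were lost without SC replicate 3 or SH2 replicate 2 or 3, the RNA call also without SC replicate 2 and the footprint call without SC replicate 1 (adjusted p up to 0.218 for RNA and 0.142 for footprints).

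CARS2 and WARS2, the mitochondrial cysteinyl and tryptophanyl enzymes, fell in RNA with both hairpins. CARS2 RNA was 105, 91.5 and 102 CPM in SC, 63.5, 69.5 and 68.5 in SH2, and 64.6, 68.6 and 67.7 in SH3. All hairpin libraries lay below all SC libraries. The log2 changes were -0.56 (SE 0.09, adjusted p = 0.000103, edgeR) and -0.57 (SE 0.09, adjusted p = 0.000145, edgeR). CARS2 footprints were 55.2, 68.2 and 51.7 CPM in SC, 34.4, 34.7 and 42.4 in SH2, and 28.7, 34.9 and 34.7 in SH3. They fell, also without overlap, by 0.64 on the log2 scale with SH2 (SE 0.17, adjusted p = 0.00555, edgeR) and by 0.81 with SH3 (SE 0.17, adjusted p = 0.00188, edgeR).

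WARS2 RNA was 24.0, 18.5 and 22.7 CPM in SC, 12.3, 12.8 and 13.2 in SH2, and 18.2, 14.2 and 14.9 in SH3. Every hairpin library was below every SC library, by a small gap in SH3. RNA fell by 0.76 on the log2 scale with SH2 (SE 0.13, adjusted p = 0.00022, edgeR) and by 0.46 with SH3 (SE 0.13, adjusted p = 0.00945, edgeR). WARS2 footprints, 17 to 74 counts a library, were not called (log2 -0.32 and -0.28, edgeR adjusted p = 0.232 and 0.349).

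LARS2, the mitochondrial leucyl enzyme, rose with SH3 alone, in RNA and in footprints. Its RNA was 22.4, 21.1 and 18.8 CPM in SC, 17.7, 22.3 and 20.6 in SH2, and 36.3, 37.6 and 38.0 in SH3. Its footprints were 15.3, 24.0 and 17.4 CPM in SC, 19.6, 17.5 and 20.4 in SH2, and 37.5, 44.9 and 35.4 in SH3. In both measures the SH3 libraries were above all others and SH2 overlapped SC. The log2 change with SH3 was 0.85 in RNA (SE 0.11, adjusted p = 3.65e-05, edgeR) and 1.10 in footprints (SE 0.20, adjusted p = 0.000544, edgeR). HARS2, which shares its upstream stretch with HARS1, also rose with SH3 in RNA (log2 0.37, adjusted p = 0.00514, edgeR) and footprints (log2 0.55, adjusted p = 0.00769, edgeR), without overlap with SC. With SH2, HARS2 was not called in RNA (log2 -0.06, adjusted p = 0.59, edgeR) or in footprints (log2 -0.07, adjusted p = 0.705, edgeR).

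Other mitochondrial enzymes were called in 1 comparison against SC. MARS2, the methionyl enzyme, rose in RNA with SH2 (log2 0.64, adjusted p = 0.000515, edgeR). VARS2, the valyl enzyme, also rose with SH2 (log2 0.93, SE 0.20, adjusted p = 0.00127, edgeR), on 43 to 48 counts in SC and 91 to 99 in SH2. The SH3 RNA values of MARS2 and VARS2, 0.30 and 0.51, missed the threshold (edgeR adjusted p = 0.0592 and 0.0523). YARS2 RNA fell with SH2 (log2 -0.32, adjusted p = 0.00833, edgeR), a call lost when plain library totals were used for scaling (adjusted p = 0.0524). EARS2, the glutamyl enzyme, fell in footprints with SH2 (log2 -0.82, SE 0.24, adjusted p = 0.012, edgeR), a call lost without SH2 replicate 1 (adjusted p up to 0.059). IARS2 RNA was called higher with SH3 (log2 0.42, adjusted p = 0.0249, edgeR), and the call was lost without SC replicate 2 or 3 or any 1 SH3 replicate (adjusted p up to 0.122). FARS2, NARS2, RARS2 and SARS2 were called in neither measure against SC. With the replicate number as a block, further calls were made with SH2: in RNA for EARS2 (log2 -0.28, adjusted p = 0.033, edgeR), RARS2 (-0.26, adjusted p = 0.0338) and IARS2 (0.34, adjusted p = 0.0345), and in footprints for RARS2 (0.42, adjusted p = 0.034).

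Translational efficiency (footprints per RNA) was tested as the difference between the footprint and the RNA change in 1 fit over all 18 libraries. With SH2 1 of 37 members was called, against 3.9% of all genes tested, and with SH3 0 were, against 0.686%. At an unadjusted p under 0.05 the counts were 7 (18.9%) and 6 (16.2%), beside 17.9% and 12.6% of all genes. DESeq2's Wald test called 5 and 1, and 8.8% and 3.93% of all genes that it gave an adjusted p. The called gene was YARS1, lower with SH2 by log2 -0.56 (SE 0.14, adjusted p = 0.0314, edgeR). Its value with SH3 was -0.36 (SE 0.14, adjusted p = 0.281, edgeR). The SH2 call was lost without SC replicate 2 or 3 or SH2 replicate 1 or 3 (adjusted p up to 0.148). It was also lost where IN and RPF libraries of the same group and number were joined as 1 block (adjusted p = 0.0811, edgeR). In SC the log2 ratio of YARS1 footprint CPM to RNA CPM was 0.14, 0.54 and 0.41. It was -0.22, -0.09 and -0.25 in SH2, and 0.01, 0.00 and -0.04 in SH3, with no overlap with SC. These per-library ratios join IN and RPF libraries of the same number, which the labels do not say came from 1 lysate. Over genes, the deviations of such libraries from their group means correlated negatively for numbers 1 and 2 of SC (-0.49 and -0.46) and of SH2 (-0.304 and -0.313), and positively for number 3 and in SH3. Whether the single ratios of SC and SH2 join like samples was not tested, and the efficiency test rests on group means.

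Among the members with footprints above the floor of 3 counts, QARS1 had the highest and PARS2 the lowest mean change in efficiency, and neither was called. QARS1 was 0.51 with SH2 and 0.42 with SH3 (SE 0.21 each, edgeR adjusted p = 0.195 and 0.422). PARS2 was -0.62 and -0.59 (SE 0.20 and 0.21, edgeR adjusted p = 0.0868 and 0.201). For VARS2, at or under the floor in every RPF library, no ratio is given, but VARS2 is kept in the efficiency counts and medians over the 37 members. AIMP1, at -0.57 and -0.54, and AIMP2, at -0.25 and -0.74, also had negative values with both hairpins (lowest edgeR adjusted p = 0.119, AIMP2 with SH3). The median over the 37 members was -0.13 with SH2 and -0.11 with SH3, beside -0.02 and -0.04 over all genes tested. In the RPF libraries, SC replicate 2 was the highest of the 3 SC libraries for 26 of the 37 genes, while in the IN libraries it was the highest for 4. The part of this library in the efficiency values was not tested apart from leaving it out.

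**Figure D3:**
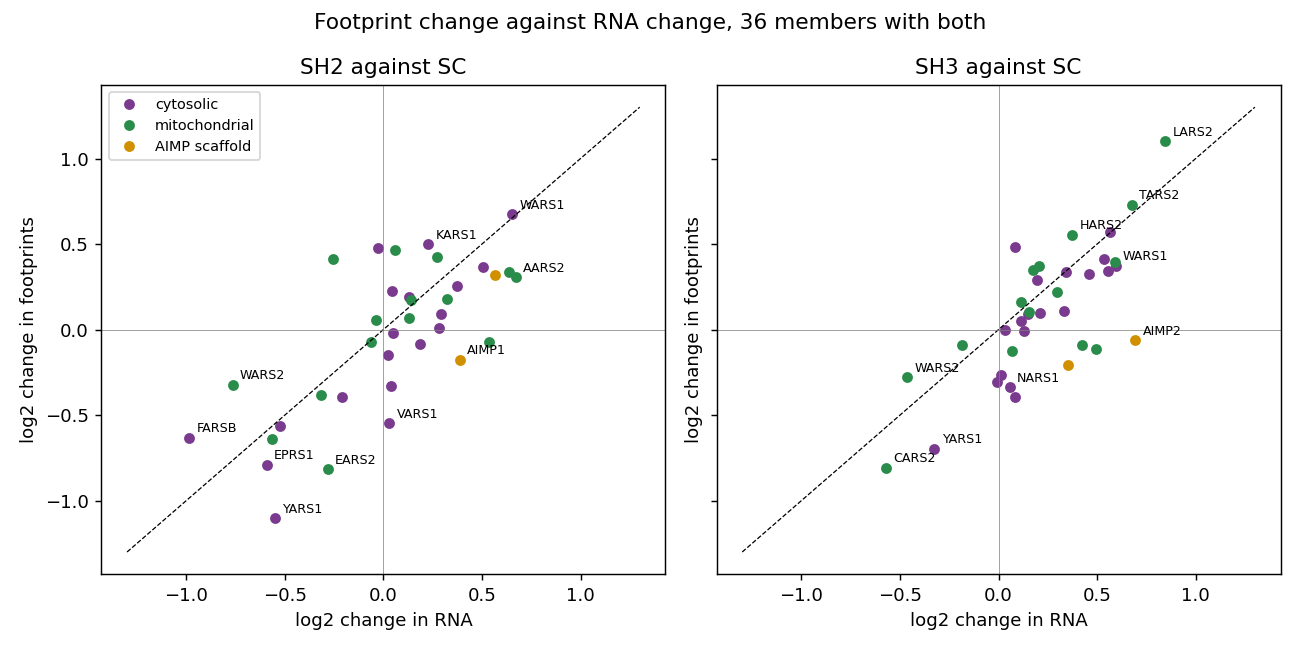
Log2 change in footprints (vertical) against log2 change in RNA (horizontal) for 36 members, with SH2 against SC (left) and SH3 against SC (right), and the dashed line where both are equal. YARS1 lies below the line in both panels, at -0.55 and -1.10 with SH2 and -0.33 and -0.70 with SH3.

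The hairpins were also compared directly. In RNA, 11 of 37 members differed between SH2 and SH3, against 39.3% of all genes tested, and 10 of the 11 were lower in SH2 (20.4% of all genes were lower and 18.9% higher). In footprints 9 of 36 differed, against 23.8%, and 8 of the 9 were lower in SH2 (11.6% of all genes lower, 12.1% higher). In efficiency 0 of 37 differed in edgeR's test, against 0.016% of all genes, with 3 (8.11%) at an unadjusted p under 0.05, beside 11.7% of all genes, and DESeq2 called 0. Genes called in both RNA and footprints were AARS1, EPRS1, FARSB, HARS2, LARS1 and LARS2, all lower in SH2. The largest differences of SH2 minus SH3 in RNA were -1.15 for EPRS1 (SE 0.12, adjusted p = 6.65e-06, edgeR), -1.10 for FARSB (SE 0.12, adjusted p = 9.93e-06, edgeR) and -0.88 for LARS2 (SE 0.11, adjusted p = 4.58e-05, edgeR). In footprints they were -1.13 for EPRS1 (SE 0.15, adjusted p = 7.29e-05, edgeR), -1.04 for LARS2 (SE 0.20, adjusted p = 0.00157, edgeR) and -0.68 for FARSB (SE 0.14, adjusted p = 0.0026, edgeR).

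Both compartments held enzymes that rose and enzymes that fell. Of the cytosolic RNAs, 9 of 19 were called with SH2 (5 higher, 4 lower) and 9 with SH3 (8 higher, 1 lower). Of the mitochondrial RNAs, 8 of 16 were called with SH2 (5 higher, 3 lower) and 8 with SH3 (6 higher, 2 lower). Over all genes tested, 61.4% of RNAs were called with SH2 and 53% with SH3. The median log2 change of cytosolic minus that of mitochondrial RNAs was -0.05 with SH2 and -0.10 with SH3. In footprints, 10 of 19 cytosolic genes were called with SH2 (3 higher, 7 lower) and 6 with SH3 (4 higher, 2 lower). Of the 15 mitochondrial genes tested in footprints, 3 were called with SH2 (1 higher, 2 lower) and 4 with SH3 (3 higher, 1 lower). Over all genes tested in footprints, 44.2% were called with SH2 and 35.9% with SH3. Mitochondrial genes mostly had fewer footprint counts, and the part of depth in these numbers was not tested. The difference of the medians in footprints was -0.08 with SH2 and -0.06 with SH3. For SH2 it ran from -0.184 (without SC replicate 2; -0.1837 without SH2 replicate 2) to -0.0476 (without SC replicate 3), and for SH3 it was 0.08 without SC replicate 1 and 0.01 without SH3 replicate 2. In efficiency the medians were -0.15 (cytosolic) and -0.07 (mitochondrial) with SH2, and -0.12 and 0.02 with SH3. The mitochondrial medians in efficiency include VARS2, which was at or under the floor in footprints and had a low value with both hairpins. These medians are descriptions and were not tested.

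The mean log2 CPM over the 19 cytosolic RNAs was 7.93 ± 0.08 in SC, 7.93 ± 0.03 in SH2 and 8.15 ± 0.04 in SH3 (n = 3 each, SD). SH3 libraries, at 8.11 to 8.19, lay above the SC libraries, at 7.85 to 8.00, and the SH2 libraries lay within the SC range. Over the 16 mitochondrial RNAs the mean was 4.53 ± 0.06 in SC, 4.61 ± 0.02 in SH2 and 4.76 ± 0.08 in SH3, again with every SH3 library (4.69 to 4.84) above every SC library (4.48 to 4.60). The cytosolic mean minus the mitochondrial mean in RNA was 3.41, 3.37 and 3.44 in the SC libraries, 3.31, 3.36 and 3.27 in SH2, and 3.42, 3.35 and 3.40 in SH3. SH2 lay below SC without overlap, by a small gap, and SH3 overlapped SC. In footprints the cytosolic means were 8.37 ± 0.14, 8.28 ± 0.09 and 8.45 ± 0.04, and the mitochondrial means 4.40 ± 0.18, 4.39 ± 0.07 and 4.53 ± 0.04. The SH2 and SH3 means in footprints lay within the range of the SC libraries.

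**Figure D4:**
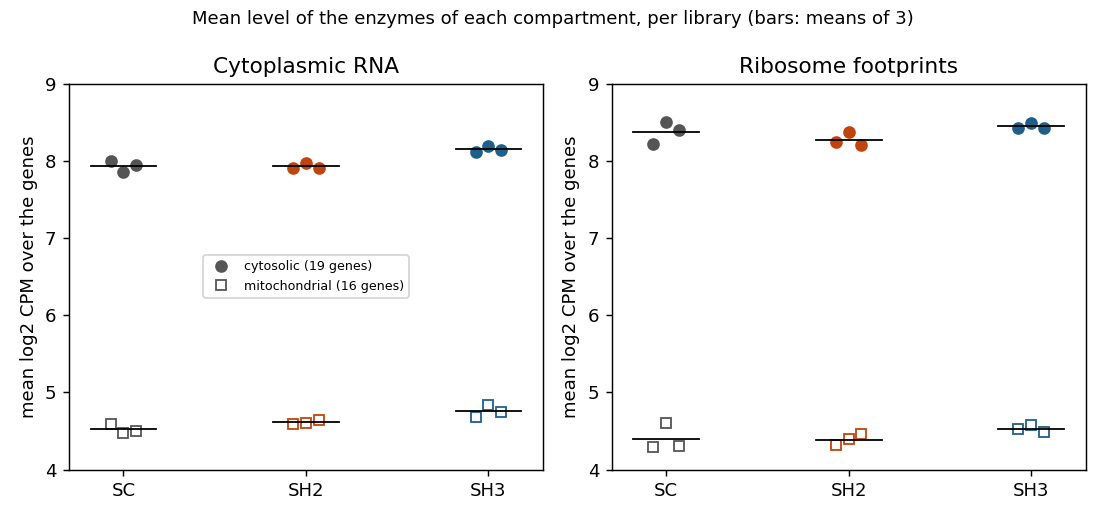
Mean log2 CPM over the 19 cytosolic (filled circles) and 16 mitochondrial (open squares) enzymes in each library, in RNA (left) and footprints (right), with bars at the means of 3 libraries. The vertical axis runs from 4 to 9 and does not start at 0. SH3 RNA libraries are at 8.11 to 8.19 for the cytosolic enzymes, above SC at 7.85 to 8.00, and at 4.69 to 4.84 for the mitochondrial ones, above SC at 4.48 to 4.60.

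The enzymes also fall into class I and class II, which have different folds of the catalytic domain. Of the 18 class I RNAs, 3 rose and 5 fell with SH2, and 5 rose and 3 fell with SH3, with EPRS1, which joins both classes, left out. Of the 16 class II RNAs, 7 rose and 1 (FARSB) fell with SH2, and 8 rose and 0 fell with SH3. The median log2 change of RNA was 0.00 and 0.12 for class I and 0.18 and 0.20 for class II. In footprints, 2 class I genes rose and 5 fell with SH2, against 2 and 3 of class II, and with SH3 4 rose and 2 fell, against 3 and 1. With each hairpin, 44.4% of class I and 50% of class II RNAs were called, against 61.4% (SH2) and 53% (SH3) of all genes. Of all RNAs tested, 31.1% rose and 30.4% fell with SH2, and 27.8% rose and 25.2% fell with SH3. Of all genes tested in footprints, 21% rose and 23.2% fell with SH2, and 16.9% rose and 19% fell with SH3. The classes were not tested against each other or against all genes.

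For 13 amino acids the set held a cytosolic and a mitochondrial enzyme whose symbols differ only in the last digit. Both genes of a pair were called in RNA in 3 of the 13 pairs with SH2 and in 4 with SH3. Of all single genes tested, 61.4% were called with SH2 and 53% with SH3. Counts were not made for pairs drawn from all genes, so those here cannot be read as particular to these pairs. FARS2, EARS2 and PARS2 also have cytosolic counterparts (FARSA with FARSB, and EPRS1 for the other genes) and were not counted as pairs. FARS2 and EARS2 RNA were not called against SC. EPRS1 and PARS2 RNA went in opposite directions with SH2 (-0.59 and 0.54) and both rose with SH3 (0.56 and 0.49). Among the 13 pairs, both RNAs were called in the same direction with SH2 for alanine (AARS1 0.28 and AARS2 0.67) and tyrosine (YARS1 -0.55 and YARS2 -0.32). With SH3 this was so for alanine (0.54 and 0.59), histidine (HARS1 0.34 and HARS2 0.37) and leucine (LARS1 0.56 and LARS2 0.85). The tryptophanyl pair went in opposite directions with both hairpins, WARS1 at 0.65 and 0.59 and WARS2 at -0.76 and -0.46. In 7 pairs with SH2 and 6 with SH3, 1 gene of the pair was called. Of the HARS1 and HARS2 pair, both RNAs rose with SH3 and HARS1 alone with SH2. The log2 ratio of HARS1 to HARS2 RNA was 2.21 ± 0.08 in SC, 2.64 ± 0.12 in SH2 and 2.17 ± 0.01 in SH3 (n = 3 each, SD).

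Proteins that work beside the synthetases were counted from lists of related genes. Over all genes tested in RNA, 31.1% rose and 30.4% fell with SH2, and 27.8% rose and 25.2% fell with SH3, and with lists this short the counts are a description. Of 8 charging partners, 7 were tested in RNA, and 5 fell with SH2 and 2 with SH3, with none higher. XPOT, which exports tRNA from the nucleus, fell in RNA with both hairpins: SC libraries had 397, 379 and 375 CPM, SH2 libraries 219, 300 and 211, and SH3 libraries 308, 287 and 289. Its log2 changes in RNA were -0.66 and -0.38 (SE 0.12 each, edgeR adjusted p = 0.000315 and 0.0152), and in footprints -0.86 and -0.96 (SE 0.14 each, edgeR adjusted p = 0.000149 and 0.000109). No hairpin library of XPOT overlapped SC in either measure. TRNT1, which adds the CCA end that synthetases charge, fell in RNA by 0.46 and 0.29 on the log2 scale (edgeR adjusted p = 0.00248 and 0.0371).

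Of the eEF1A delivery list, 4 genes were tested in RNA, and EEF1A1, EEF1B2 and EEF1D fell with both hairpins. EEF1B2, an exchange factor for eEF1A, fell by 0.92 with SH2 and by 0.64 with SH3 on the log2 scale (SE 0.10 each, edgeR adjusted p = 4.45e-06 and 0.00016). EEF1A1 RNA fell by 0.44 and by 0.35 (edgeR adjusted p = 0.00297 and 0.0141), while its footprints rose with SH2 (log2 0.60, adjusted p = 0.00915, edgeR). Near-identical copies of EEF1A1 exist in the genome, and how reads that match several places were counted is not given in the sources used here, so its values are uncertain.

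Of 10 mitochondrial tRNA partners, 1 rose and 2 fell in RNA with SH2, and 3 rose and 1 fell with SH3. GATB, a subunit of the enzyme that makes mitochondrial glutaminyl-tRNA, went in opposite directions, as EPRS1 did. Its RNA was 22.6, 25.1 and 22.7 CPM in SC, 10.2, 11.8 and 11.5 in SH2, and 29.8, 33.4 and 32.6 in SH3, with no overlap between the 3 groups. The log2 changes were -1.07 (SE 0.11, adjusted p = 2.33e-06, edgeR) and 0.45 (SE 0.11, adjusted p = 0.00312, edgeR). GFM1, a mitochondrial elongation factor, rose in RNA by 0.81 and 0.67 (edgeR adjusted p = 1.01e-05 and 8.62e-05) and in footprints by 1.09 and 0.66 (edgeR adjusted p = 3.19e-05 and 0.00311).

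Of 12 genes listed for the response to uncharged tRNA, 11 were tested in RNA, and they split by direction. With SH2, 5 rose and 5 fell, and with SH3 3 rose and 4 fell. ATF3, DDIT3 and SESN2, stress genes downstream of ATF4, rose with both hairpins. DDIT3 RNA was 23.5, 18.05 and 18.5 CPM in SC, 32.8, 33.8 and 32.5 in SH2, and 32.4, 42.5 and 37.2 in SH3. SESN2 RNA was 20.7, 13.3 and 16.2 CPM in SC, 39.5, 41.3 and 52.7 in SH2, and 62.8, 53.9 and 55.1 in SH3. Neither gene overlapped SC with either hairpin. In footprints, DDIT3 rose with both hairpins (log2 1.201 and 1.81, edgeR adjusted p = 0.00519 and 0.000325) and SESN2 with SH3 alone (1.54, adjusted p = 5.23e-05). SESN2 footprints with SH2 (0.28, adjusted p = 0.314) and ATF3 footprints with both hairpins (0.38 and 0.43, adjusted p = 0.297 and 0.281) overlapped SC and were not called. ATF4 RNA itself fell by 0.34 and by 0.36 on the log2 scale (SE 0.12 each, edgeR adjusted p = 0.0188 and 0.0179), and its footprints fell with SH2 (log2 -0.54, adjusted p = 0.0112) and were -0.25 with SH3 (adjusted p = 0.234).

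The serine synthesis genes PHGDH and PSAT1 and the cystine carrier SLC7A11, known targets of ATF4 as well, fell in RNA with both hairpins. PHGDH RNA was 56.7, 70.2 and 82.5 CPM in SC, 19.1, 15.8 and 23.5 in SH2, and 36.1, 32.6 and 41.3 in SH3. PHGDH fell by 1.84 and by 0.93 on the log2 scale (SE 0.16 each, edgeR adjusted p = 5.62e-07 and 0.000237). PSAT1 RNA fell by 0.97 and by 1.18 (SE 0.12 each, edgeR adjusted p = 1.03e-05 and 3.84e-06). For SLC7A11 the fall was by 0.54 with SH2 and by 1.55 with SH3 (edgeR adjusted p = 0.00183 and 8.09e-07), while SLC7A11 footprints were 0.01 with SH2 (adjusted p = 0.978) and fell by 1.84 with SH3 (adjusted p = 3.33e-06). TRIB3 and CHAC1 were called higher with SH2 alone, by log2 1.01 and 0.82 (edgeR adjusted p = 1.01e-05 and 0.000245).

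The authors' deposited table holds its own DESeq2 comparisons. In it, 18 members were called in RNA with SH2 (11 higher, 7 lower) and 18 with SH3 (15 higher, 3 lower). In footprints it called 12 with SH2 (3 higher, 9 lower) and 11 with SH3 (8 higher, 3 lower). Its calls over all genes were not counted here, so these numbers cannot be read as particular to the members. All 18 of its RNA calls with each hairpin were also called by edgeR, as were all 12 footprint calls with SH2 and 10 of the 11 with SH3. The table's calls that differed were TARS2 (SH2, both measures) and SARS1 (SH3 RNA), not called there, and HARS1 (SH3 footprints), called there alone. In the authors' deposited table the columns for the ratio measure are identical for SH2 and SH3 in all 17017 genes, and they were not used.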

How the data were processed

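Counts per gene and library were taken as deposited by the authors. Per the file headers, the table also holds the authors' normalized signal (each deposited count divided by 1 size factor per library, checked in all 18 columns to a tolerance of 1e-06 in the ratio) and their log2 fold changes and p-values from DESeq2. The submitters' processing notes name Bowtie 1.2.2 and DESeq2. The genome build, the counting tool and the handling of reads that match several places are not given in the sources used here.

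Counts were tested with edgeR 4.0.16 in R 4.3.3: filterByExpr, TMM factors, the quasi-likelihood test, two-sided, with Benjamini-Hochberg adjustment over 12710 genes for RNA (9 IN libraries), 10345 for footprints (9 RPF libraries) and 12531 for efficiency (interaction over 18 libraries). SE is the absolute log2 change divided by the square root of F. No 2 replicates agreed within counting noise. In simulated data, 94% of 2-fold changes were recovered in RNA (SH2 against SC, 12676 genes), 79.9% in footprints (10275 genes) and 49% in efficiency (12452 genes). The simulation changed 200 genes and gave all genes 1 common spread. It does not give the recovery of smaller changes, of genes with more spread, or where many genes change.

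The alternatives were DESeq2 1.42.0, plain library totals, RLE factors, no filter, only the groups compared, RPF libraries thinned to 1662705 counts, the replicate number as a block, and each replicate left out. Deviations of same-numbered SC and SH2 libraries from their group means correlated from 0.358 to 0.399 in IN and from 0.248 to 0.297 in RPF, so these numbers were taken, after the data were seen, to pair SC with SH2, and a blocked value stands beside each SH2 result whose call it changes. Those of SC and SH3 correlated from -0.146 to 0.351 and from -0.06 to 0.26, and of IN and RPF from -0.49 to 0.503. These were not taken as pairs. The block in the efficiency fit nevertheless joins IN and RPF libraries of the same group and number, so its result depends on a pairing not shown.

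The members and lists were chosen with earlier results of these data known. All 37 members may be named. Values per library are given by rule for up to 4 cytosolic and 3 mitochondrial members called with both hairpins in 1 direction, for opposite calls, and for the extremes in efficiency and in SH2 minus SH3. Those for other genes, the cases with the clearest change or a described partner, were added after their values were seen. Of 43 genes in the partner and marker lists, 42 were in the table, and ASNS was not analysed here.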

Additional observations from a re-analysis of the deposited data

Results flagged for a closer look

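The hairpins differed from each other in 20 tests of single members, each by edgeR's quasi-likelihood test of SH2 against SH3 with p adjusted over all genes. All values are SH2 minus SH3 on the log2 scale. In RNA they were -1.15 for EPRS1 (adjusted p = 6.65e-06), -1.10 for FARSB (9.93e-06), -0.88 for LARS2 (4.58e-05), -0.54 for IARS1 (0.000456), -0.46 for RARS2 (0.00958), -0.44 for HARS2 (0.003), -0.43 for LARS1 (0.00415), -0.40 for TARS2 (0.00982), -0.35 for EARS2 (0.0432), -0.26 for AARS1 (0.0282) and 0.34 for MARS2 (0.0406). In footprints they were -1.13 for EPRS1 (adjusted p = 7.29e-05), -1.04 for LARS2 (0.00157), -0.68 for FARSB (0.0026), -0.63 for HARS2 (0.00611), -0.43 for SARS1 (0.0204), -0.41 for AARS1 (0.0391), -0.40 for YARS1 (0.03), -0.38 for LARS1 (0.0411) and 0.42 for NARS1 (0.0236).

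Of the RNA differences, those of AARS1 and EARS2 were lost without SH2 replicate 1 or 2 or any 1 SH3 replicate (adjusted p up to 0.129 and 0.181), that of MARS2 without replicate 1 or 3 of SH2 or SH3 (up to 0.134), and that of TARS2 without SH3 replicate 2 (adjusted p up to 0.055). Of the footprint differences, that of AARS1 was lost without SH2 replicate 1 or 3 or SH3 replicate 2 or 3 (adjusted p up to 0.137), and that of LARS1 without any 1 SH2 replicate or SH3 replicate 1 or 2 (up to 0.173). The NARS1 call was lost without SH2 replicate 1 or 2 or SH3 replicate 1 or 3 (up to 0.11), that of SARS1 without SH2 replicate 3 or SH3 replicate 1 or 2 (up to 0.109), and that of YARS1 without any 1 of the 6 libraries (up to 0.0972).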

How the results depend on the processing

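Of 49 RNA calls on members, 37 were kept under every alternative run and 12 were lost in at least 1. Of 32 footprint calls 17 were kept and 15 lost, and the 1 efficiency call was lost. No called value changed sign. Members called in efficiency with SH2 numbered 5 by DESeq2, 3 with plain library totals, and 0 with no filter and with only the groups compared. The number was also 0 with IN and RPF libraries of the same group and number joined as 1 block. By DESeq2 1 was called with SH3. With 1 replicate left out at a time, efficiency calls ranged from 0 to 3 with SH2 and from 0 to 1 with SH3, footprint calls from 9 to 17 with SH2 and from 6 to 11 with SH3 (6 without SH3 replicate 2), and footprint calls between the hairpins from 5 to 6. The cause was not tested. Apart from DESeq2's efficiency test, calls over all genes were not counted under the alternatives. The cytosolic minus mitochondrial median for SH3 was 0.1001 in footprints and -0.0717 in efficiency with RPF libraries thinned, and -0.2061 in efficiency by DESeq2. With 1 replicate left out it ranged in RNA from -0.1106 to 0.0098 (SH2), -0.1546 to -0.0699 (SH3) and -0.0687 to -0.0134 (SH2 against SH3), in footprints from -0.184 to -0.0476 (SH2) and -0.1311 to 0.0773 (SH3), and in efficiency from -0.1902 to -0.0236 (SH2), -0.1748 to -0.0505 (SH3) and -0.0341 to 0.1298 (SH2 against SH3). Plain totals moved the median RNA change of all genes to 0.1053 with SH2 and 0.1212 with SH3.

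The fit with the replicate block called 22 members in RNA and 15 in footprints with SH2, and 20 and 12 with SH3. Calls over all genes were not counted under this fit, so these numbers cannot be read as particular to the members. Beside the calls named above, the block added HARS1 and VARS1 in footprints and VARS2 in RNA with SH3. The numbers were not taken to pair SC with SH3. No other call against SC was changed by the block. Mitochondrial genes mostly had fewer footprint counts than cytosolic genes, and the part of depth in their calls was not tested.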
